A study of Homo sapiens with 6 samples.

Results

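The proteasome genes measured here are the subunits, assembly chaperones, activators and inhibitor of the proteasome, chosen by name as every row of the deposited table whose symbol is PSM, a letter A to G and a number. The rule gave 44 genes of 17929 in the table, and all 44 reached the level needed for testing, PSMD5 through its H9 libraries alone. Each was read in 6 messenger RNA libraries of human embryonic stem cells from the established lines HES2 and H9. In each line 1 library came from cells infected with a virus carrying shDDX18#1 and 1 from cells with shDDX18#3, both short hairpin RNAs against DDX18, an RNA helicase of the nucleolus, and 1 came from cells with shLuc, a hairpin against luciferase. All cells were kept on inactivated mouse embryonic fibroblasts, which serve as a feeder layer, and were collected on day 4 after infection. Replicate 1 of each hairpin is H9 and replicate 2 is HES2, and the labels do not say that libraries came from separate cultures, so p-values measure the spread between these 6 samples only. PSMA8, PSMB8, PSMB9 and PSMB11 also have names that the rule would take, but have no row and were not analysed here.

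The proteasome is the protease that degrades proteins tagged with ubiquitin. Its 20S core is a barrel of stacked rings, with PSMA proteins forming the outer rings and PSMB proteins the inner rings, of which PSMB5, PSMB6 and PSMB7 carry the active sites in most cells. The 19S cap, made of PSMC ATPases and PSMD proteins, binds, unfolds and feeds in the substrates. PSMG proteins and some PSMD proteins are chaperones that help to assemble core and cap but are not part of the finished particle, PSME proteins are alternative caps, and PSMF1 was named as an inhibitor of the core. In the immunoproteasome, which immune cells and cells exposed to interferon make, PSMB8, PSMB9 and PSMB10 replace the usual active subunits. Embryonic stem cells are known for high proteasome activity.

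Levels are the deposited normalized values, which are reads per 1e+06 of an effective library size (CPM). Libraries held between 2668179 and 4271741 reads, so 1 read was worth between 0.224 and 0.408 CPM. Fold changes are log2 differences of value + 1 from limma, with cell line as a block, and a gene was called at a Benjamini-Hochberg adjusted p under 0.05 over the 17768 genes tested. DDX18 itself stood at 39.3 CPM with shDDX18#1 and 60.4 CPM with shDDX18#3 in HES2, against 161 CPM with shLuc, and at 19.2 and 47.3 CPM in H9, against 153 CPM. Of 12 embryonic stem cell markers, 9 were called lower in the knockdown libraries and 0 higher, with a median log2 fold change of -1.39. Of 24 fibroblast and feeder markers, 15 were called higher and 0 lower, with a median of 2.15. Over all genes tested 9.6% were called higher and 6.26% lower. The fibroblast and feeder markers took 0.721% and 0.612% of reads in the HES2 knockdown libraries, against 0.190% in HES2 shLuc, and 4.63% and 1.86% in the H9 knockdown libraries, against 0.410% in H9 shLuc. DCN and FAP of that list were at 0 CPM in HES2 shDDX18#3 and HES2 shLuc, where COL1A1 of the same list was at 749 and 59.5 CPM. With shDDX18#1 in HES2, DCN was at 0.965 CPM and FAP at 0.322 CPM. In the H9 knockdown libraries DCN was at 44.9 and 14.3 CPM, against 5.54 CPM in H9 shLuc. FAP was at 30.6 and 12.3 CPM there, against 0.831 CPM. Of 10 blood and immune markers only ITGAM has a row, at 0.278 to 1.30 CPM. RNA was taken from whole cultures, so fewer cells of a type and less RNA per cell cannot be told apart. The part that the mixture of cells has in the values below was not tested.

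DDX18 knockdown was set against shLuc to ask what the helicase does for the embryonic stem cell state. In the knockdown libraries the chaperones PSMG1 and PSMG4 and the activator subunit PSME1 fell, while no subunit of the 20S core or of the 19S cap was called in either direction. Most members lay slightly lower: 37 of 44 log2 fold changes were below 0, with a median of -0.205, and 39 lay within 0.5 of 0. Over all genes tested the median was -0.018, 51.3% lay below 0 and 59.6% lay within 0.5 of 0. In limma 3 of 44 members (6.82%) were called lower, against 6.26% of all genes tested, a share close to that background. Called higher were 0 of 44 members, against 9.6% of all genes. At an unadjusted p under 0.05, 10 members were lower in limma (22.7%), against 15.7% of all genes, and 1 was higher (2.27%), against 17.5%. EdgeR called 3 members lower, against 6.69% of all genes, and 0 higher, and DESeq2 called 2 lower, against 5.89% of all genes, and 0 higher. Limma called 0 members lower without H9 shLuc, HES2 shDDX18#1, HES2 shDDX18#3 or HES2 shLuc, where the share of all genes called lower was 0.263%, 1.39%, 2.79% and 0.0402% in the order of these libraries. It also called 0 lower without the trend in the prior variance or without the cell line as a block, against 1.92% and 2.3% of all genes, and PSMG1 alone without H9 shDDX18#1, against 6.32%. The authors' deposited table lists 4 members lower at a false discovery rate under 0.05, PSME1, PSMG4, PSMG1 and PSMA2, and 0 higher, beside 9.42% of its genes lower.

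Groups without overlap were more frequent on the lower side. All 4 knockdown libraries lay below both shLuc libraries for 15 members (34.1%), against 20.9% of all genes, and above both for 2 members, PSMD9 and PSME4 (4.55%), against 19.8% of all genes. Each knockdown library lay below the shLuc library of its own line for 21 members (47.7%), against 27.9% of all genes, and above it for 4 members, PSMD2, PSMD8, PSMD9 and PSME4 (9.09%), against 25.8%. The members together took 0.473% and 0.530% of reads in the HES2 knockdown libraries with shDDX18#1 and shDDX18#3, against 0.525% in HES2 shLuc. In H9 they took 0.403% and 0.469%, against 0.543% with shLuc. Summed as CPM, the members were at 90.0% and 99.9% of their own shLuc in HES2 and at 80.1% and 88.1% in H9, so H9 shDDX18#1 was the lowest, and HES2 shDDX18#3 was nearly at its shLuc, or at 101% of it with scaling by library total. The H9 shDDX18#1 library also had the largest share of reads in fibroblast and feeder markers, and without it 1 member, PSMG1, was called lower and 1, PSME4, higher, with a median of -0.163 over the members.

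**Figure D1:**
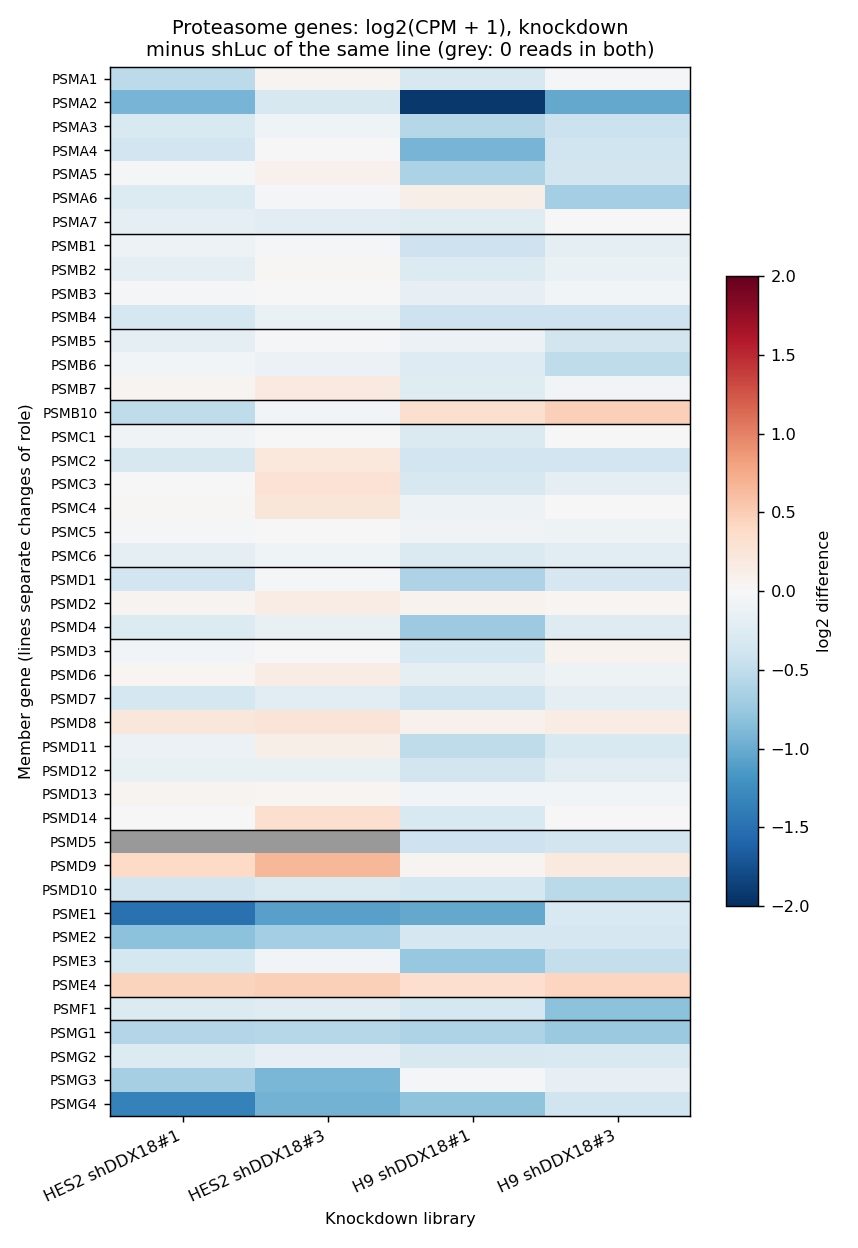
The plot by knockdown library shows, for each of the 44 members in rows grouped by role, the difference in log2(CPM + 1) between a knockdown library and the shLuc library of the same line, with blue for lower, red for higher and grey where both had 0 reads. PSME1 and PSMG4 are blue in all 4 columns and PSME4 is red in all 4, and the median over members was -0.19 and -0.03 in HES2 and -0.33 and -0.22 in H9 for shDDX18#1 and shDDX18#3.

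Among the 3 members called lower were 2 chaperones that build the 20S core, PSMG1 and PSMG4. PSME1, and PSMA2 without a call, lay further below 0 than either. All 4 chaperones of the core, PSMG1 to PSMG4, had log2 fold changes below 0, with a median of -0.54. Of these, 2 were called lower, beside 6.26% of all genes tested. PSMG1 (ENSG00000183527, chr21:39174769-39183851, minus strand, GRCh38) pairs with PSMG2 in a chaperone that holds the alpha ring as it forms. In HES2 the level of PSMG1 was 41.8 CPM under shDDX18#1 and 42.3 CPM under shDDX18#3, against 63.3 CPM under shLuc. In H9, PSMG1 had 32.7 CPM under shDDX18#1 and 29.8 CPM under shDDX18#3, against 50.7 CPM under shLuc. All 4 knockdown values lay below both shLuc values, and the drop within a line was alike with either hairpin. PSMG1 averaged 36.7 ± 6.36 CPM (SD, n = 4) in knockdown libraries and 57.0 ± 8.91 CPM (n = 2) in shLuc libraries (log2 fold change -0.63, SE 0.15, adjusted p = 0.0312 in limma). Without the H9 shLuc, HES2 shDDX18#1, HES2 shDDX18#3 or HES2 shLuc library PSMG1 was not called, nor with DESeq2 (adjusted p = 0.0503), without the trend or without the block, with log2 fold changes between -0.68 and -0.58 over all 17 alternatives.

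PSMG4 (ENSG00000180822, chr6:3231403-3303373, plus strand) pairs with PSMG3 in the other chaperone, which acts under the forming ring. In HES2 the level of PSMG4 was 16.7 CPM under shDDX18#1 and 22.6 CPM under shDDX18#3, against 44.3 CPM under shLuc. In H9, PSMG4 had 27.0 CPM under shDDX18#1 and 36.0 CPM under shDDX18#3, against 47.6 CPM under shLuc. The knockdown values lay between 16.7 and 36.0 CPM, all below the shLuc values of 44.3 and 47.6 CPM, and the lower value of each line came with shDDX18#1. PSMG4 averaged 25.6 ± 8.11 CPM (SD, n = 4) in knockdown libraries and 45.9 ± 2.37 CPM (n = 2) in shLuc libraries (log2 fold change -0.87, SE 0.23, adjusted p = 0.0375 in limma). Of the merged exon length of PSMG4, 15.0% is shared with genes on the other strand, SLC22A23 and TUBB2B, and the library kit keeps no strand, so reads there cannot be told apart. PSMG4 was called without H9 shDDX18#3 and was not called without any 1 of the other 5 libraries, without the trend or without the block, with log2 fold changes between -1.15 and -0.60 over the 17 alternatives.

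The partners of these chaperones were not called. PSMG2 stood at 31.9 CPM with shDDX18#1 and 34.5 CPM with shDDX18#3 in HES2, against 38.7 CPM with shLuc, and at 32.7 and 33.4 CPM with the same hairpins in H9, against 41.3 CPM with shLuc. The PSMG2 knockdown values lay below both shLuc values, by a smaller step than for PSMG1, with a log2 fold change of -0.26 (SE 0.16, limma adjusted p = 0.283). PSMG3 was at 13.5 and 11.1 CPM in the HES2 knockdown libraries, against 21.9 CPM in HES2 shLuc, and at 8.58 and 7.78 CPM in the H9 knockdown libraries, against 8.86 CPM in H9 shLuc. For PSMG3 the groups overlapped, since H9 shLuc lay below every HES2 value (log2 fold change -0.45, SE 0.26, limma adjusted p = 0.272). Per kb of exon, PSMG4 stood at 0.233 and 0.381 times PSMG3 in the HES2 knockdown libraries, against 0.380 in HES2 shLuc, and at 0.591 and 0.870 in the H9 knockdown libraries, against 1.01 in H9 shLuc. Per kb of the longest transcript the ratios were 0.374 and 0.612 in the HES2 knockdown libraries, against 0.611 in HES2 shLuc, and 0.950 and 1.40 in the H9 knockdown libraries, against 1.62 in H9 shLuc, so which of the 2 genes is higher in H9 depends on the length used.

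The sequence before the RefSeq start of PSMG1 is shown because a class of binding sites known for proteasome genes can be read in it. It lies inside the GENCODE span of the gene given above, which begins further upstream. The transcription factor NFE2L1, which raises proteasome genes when the protease falls short, and its relatives bind antioxidant response elements, searched here as TGANNNNGC on both strands. The CCAAT box was searched as CCAAT on both strands. The 250 bases before the RefSeq start of PSMG1 (GRCh38.p14, chr21:39183452-39183701, minus strand) are given 5′ to 3′, with matches to either motif in capitals and no overlap between motifs.
PSMG1: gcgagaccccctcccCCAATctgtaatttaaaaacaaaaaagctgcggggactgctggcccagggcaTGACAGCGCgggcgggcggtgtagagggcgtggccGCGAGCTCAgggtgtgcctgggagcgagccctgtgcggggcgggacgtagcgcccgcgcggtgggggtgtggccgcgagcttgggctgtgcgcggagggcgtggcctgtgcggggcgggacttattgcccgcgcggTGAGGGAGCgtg
The window holds 3 matches to the antioxidant core and 1 CCAAT box. Of the 44 members, 38 have a RefSeq promoter window, and 19 of these (50%) hold the antioxidant core, against 35.2% of all 35116 windows. The CCAAT box was in 16 of 38 (42.1%), against 32.0% of all windows, and the E-box CACGTG, which reads alike on both strands, in 3 (7.89%), against 6.34%. Member windows held a median of 19 CpG dinucleotides, against 11 over all windows, and the shares were not matched for base composition. A match is a string of letters and not a measured site.

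The activators lay on both sides of 0, with PSME1 called lower. PSME1 and PSME2 form a ring that opens the 20S core in the cytoplasm and are raised by interferon. They lie close together on chromosome 14, PSME1 (ENSG00000092010) at chr14:24136158-24138967 on the plus strand and PSME2 (ENSG00000100911) at chr14:24143362-24147570 on the minus strand, GRCh38. In HES2 the level of PSME1 was 17.4 CPM under shDDX18#1 and 23.4 CPM under shDDX18#3, against 50.5 CPM under shLuc. In H9, PSME1 had 14.7 CPM under shDDX18#1 and 24.96 CPM under shDDX18#3, against 31.0 CPM under shLuc. Every knockdown value lay below both shLuc values, and H9 shDDX18#3, at 24.96 CPM, lay nearest to its shLuc. PSME1 averaged 20.1 ± 4.87 CPM (SD, n = 4) in knockdown libraries and 40.8 ± 13.8 CPM (n = 2) in shLuc libraries (log2 fold change -0.97, SE 0.27, adjusted p = 0.0456 in limma), and with 1 library left out it was called without H9 shDDX18#3 and missed without any of the other 5, with log2 fold changes between -1.28 and -0.66. PSME1 was also missed with a pseudocount of 4 (adjusted p = 0.0515), without the trend and without the block. In HES2 the level of PSME2 was 29.9 CPM under shDDX18#1 and 33.1 CPM under shDDX18#3, against 53.4 CPM under shLuc. In H9, PSME2 had 36.8 CPM under shDDX18#1 and 36.6 CPM under shDDX18#3, against 46.5 CPM under shLuc. PSME2 also lay lower in all 4 knockdown libraries, without a call (log2 fold change -0.54, SE 0.17, limma adjusted p = 0.0673).

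Because PSME1 was called in the knockdown comparison, its window of 250 bases before the RefSeq start (GRCh38.p14, chr14:24135944-24136193, plus strand) is given in the same way, with the match to the antioxidant core in capitals.
PSME1: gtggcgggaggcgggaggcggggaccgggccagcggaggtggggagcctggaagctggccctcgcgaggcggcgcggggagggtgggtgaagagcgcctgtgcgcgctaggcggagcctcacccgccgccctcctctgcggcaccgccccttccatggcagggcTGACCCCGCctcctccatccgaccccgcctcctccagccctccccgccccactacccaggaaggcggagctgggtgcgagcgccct
The window holds 1 match to that core and no CCAAT box or E-box. The window of PSMG4, the remaining member called, holds 0 matches to the antioxidant core, 0 CCAAT boxes and 0 E-boxes and is not printed. Of 10 interferon response genes 7 were tested, with 0 called higher, against 9.6% of all genes, and 1 lower, IFIT1, against 6.26%. IFIT1 had a log2 fold change of -1.45 (limma adjusted p = 0.0257). Its mean was 0.081 CPM in knockdown libraries and 1.95 CPM in shLuc libraries, with 0 reads in 3 of the 4 knockdown libraries.

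PSME3 forms a ring on its own in the nucleus. PSME3 had 189.8 CPM (shDDX18#1) and 232 CPM (shDDX18#3) in HES2 knockdown libraries, against 241 CPM in HES2 shLuc, and 172 CPM (shDDX18#1) and 209 CPM (shDDX18#3) in H9 knockdown libraries, against 292 CPM in H9 shLuc. All 4 PSME3 knockdown values lay below both shLuc values (log2 fold change -0.41, SE 0.17, limma adjusted p = 0.134). PSME4 is a large single-chain activator known in mice for its role in sperm cells. PSME4 had 174 CPM (shDDX18#1) and 178 CPM (shDDX18#3) in HES2 knockdown libraries, against 128 CPM in HES2 shLuc, and 197 CPM (shDDX18#1) and 210.1 CPM (shDDX18#3) in H9 knockdown libraries, against 156 CPM in H9 shLuc. It was the member furthest above 0, higher than its own shLuc in all 4 knockdown libraries by 0.34 to 0.47 on the log2 scale, and narrowly missed the threshold (log2 fold change 0.42, SE 0.13, limma adjusted p = 0.0593). PSME4 was called higher in 4 of 17 alternatives: with median-ratio or quantile scaling, with a filter of 5 CPM and without H9 shDDX18#1. It was missed in 13, edgeR and DESeq2 among them, with log2 fold changes between 0.385 and 0.457 over the 17. The authors' deposited table gives PSME4 a false discovery rate of 0.126. The inhibitor PSMF1 was at 55.0 and 56.0 CPM in the HES2 knockdown libraries, against 66.6 CPM in HES2 shLuc, and at 64.9 and 46.4 CPM in the H9 knockdown libraries, against 83.1 CPM in H9 shLuc. The PSMF1 knockdown values all lay below both shLuc values, without a call (log2 fold change -0.42, SE 0.18, limma adjusted p = 0.145).

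**Figure D2:**
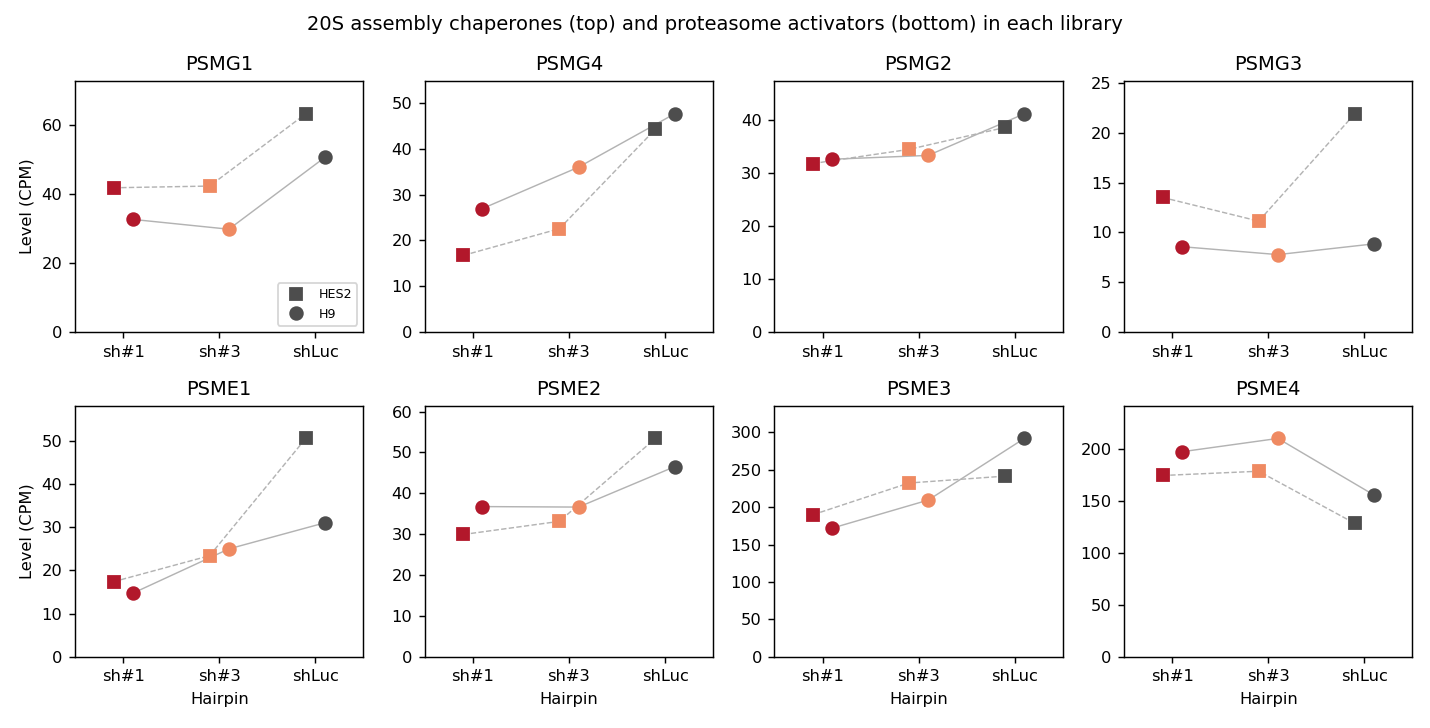
The plot of chaperones and activators gives the level in CPM of PSMG1, PSMG4, PSMG2 and PSMG3 in the top row and PSME1 to PSME4 in the bottom row for each hairpin, with squares and dashed lines for HES2 and circles and solid lines for H9, on axes that start at 0. In the panels of PSMG1, PSMG4 and PSME1 all knockdown points lie below both shLuc points, and in that of PSME4 all lie above.

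Among the 14 subunits of the 20S core that most cells use, all log2 fold changes were below 0 in limma, where 0 were called and the median was -0.21. Under the 17 alternatives PSMB7 lay above 0 with median-ratio or quantile scaling, with DESeq2 and without H9 shDDX18#1 or H9 shLuc, PSMA5 lay above 0 without H9 shLuc, and the other 12 stayed below 0. PSMA2, PSMA3 and PSMB4 were lower at an unadjusted p under 0.05 in limma, beside 15.7% of all genes. EdgeR and DESeq2 also called 0 of the 14. Over all genes limma, edgeR and DESeq2 called 6.26%, 6.69% and 5.89% lower and 9.6%, 9.66% and 10.2% higher. The 7 alpha ring subunits, which form the gate of the barrel, ran from -1.05 for PSMA2 to -0.16 for PSMA7. PSMA2 stood at 3.86 CPM with shDDX18#1 and 6.40 CPM with shDDX18#3 in HES2, against 8.27 CPM with shLuc, and at 2.45 and 5.51 CPM with the same hairpins in H9, against 12.2 CPM with shLuc. PSMA2 was thus low in every library, from 6 to 44 reads, and lowest in H9 shDDX18#1, and limma did not call it (log2 fold change -1.05, SE 0.38, adjusted p = 0.0981). The authors' deposited table gives PSMA2 a log2 fold change of -1.12 with a false discovery rate of 0.0408. PSMA4 stood at 125 CPM with shDDX18#1 and 162 CPM with shDDX18#3 in HES2, against 163 CPM with shLuc, and at 98.4 and 143 CPM with the same hairpins in H9, against 189 CPM with shLuc. PSMA4 was at 99.2% of its own shLuc in HES2 shDDX18#3 and at 52.0% in H9 shDDX18#1. PSMA7 stood at 202 CPM with shDDX18#1 and 199 CPM with shDDX18#3 in HES2, against 231 CPM with shLuc, and at 170.3 and 202 CPM with the same hairpins in H9, against 201 CPM with shLuc. PSMA7 groups overlapped.

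The 4 beta ring subunits without an active site ran from -0.33 for PSMB4 to -0.06 for PSMB3. PSMB4 had 194 CPM (shDDX18#1) and 225 CPM (shDDX18#3) in HES2 knockdown libraries, against 248 CPM in HES2 shLuc, and 191 CPM (shDDX18#1) and 191 CPM (shDDX18#3) in H9 knockdown libraries, against 254 CPM in H9 shLuc. The PSMB4 knockdown values lay below both shLuc values by a similar step in 3 of the 4 libraries. PSMB3 had 89.1 CPM (shDDX18#1) and 91.1 CPM (shDDX18#3) in HES2 knockdown libraries, against 90.3 CPM in HES2 shLuc, and 92.3 CPM (shDDX18#1) and 99.5 CPM (shDDX18#3) in H9 knockdown libraries, against 104 CPM in H9 shLuc. For PSMB3 the groups overlapped. The 3 active subunits of the standard core had log2 fold changes of -0.18 for PSMB5, the chymotrypsin-like site, -0.23 for PSMB6, the caspase-like site, and -0.01 for PSMB7, the trypsin-like site, with adjusted p of 0.426, 0.306 and 0.962 in limma. PSMB5 stood at 109 CPM with shDDX18#1 and 123 CPM with shDDX18#3 in HES2, against 125 CPM with shLuc, and at 134 and 112 CPM with the same hairpins in H9, against 145 CPM with shLuc. PSMB6 stood at 121 CPM with shDDX18#1 and 117 CPM with shDDX18#3 in HES2, against 126 CPM with shLuc, and at 111 and 93.4 CPM with the same hairpins in H9, against 133 CPM with shLuc. PSMB7 stood at 134 CPM with shDDX18#1 and 147 CPM with shDDX18#3 in HES2, against 129 CPM with shLuc, and at 133 and 152 CPM with the same hairpins in H9, against 158 CPM with shLuc. PSMB6 was lower than both shLuc values in all 4 knockdown libraries, while PSMB5 and PSMB7 overlapped.

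PSMB10, the immunoproteasome counterpart of PSMB7, was at the edge of detection. PSMB10 stood at 0.965 CPM with shDDX18#1 and 1.67 CPM with shDDX18#3 in HES2, against 1.79 CPM with shLuc, and at 1.63 and 1.95 CPM with the same hairpins in H9, against 1.11 CPM with shLuc. These values stand for 3 to 8 reads per library, and limma made no call (log2 fold change 0.06, 95% interval -0.72 to 0.84, adjusted p = 0.921). Per kb of exon PSMB10 stood at 0.695% and 1.10% of PSMB7 in the HES2 knockdown libraries, against 1.34% in HES2 shLuc, and at 1.18% and 1.23% in the H9 knockdown libraries, against 0.676% in H9 shLuc. PSMB10 shares 34.8% of its exon length with another gene on the same strand, AC040162.1, so its level is uncertain.

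The 17 subunits of the 19S cap had a median log2 fold change of -0.08, all within 0.5 of 0, with 13 below 0. However, PSMD13 and PSMD14 changed sign with the scaling, and PSMC3, PSMC4, PSMD3, PSMD6 and PSMD11 with 1 library left out. Of the 17, 0 were called in limma, edgeR or DESeq2, and 0 were at an unadjusted p under 0.05 in limma. Over all genes these tools called 6.26%, 6.69% and 5.89% lower and 9.6%, 9.66% and 10.2% higher. At an unadjusted p under 0.05 in limma, 15.7% of all genes were lower and 17.5% higher. The 6 ATPases of the base, the ring of motors that unfolds substrates, ran from -0.22 for PSMC2 to 0.05 for PSMC4. PSMC2 had 70.5 CPM (shDDX18#1) and 102 CPM (shDDX18#3) in HES2 knockdown libraries, against 88.1 CPM in HES2 shLuc, and 78.0 CPM (shDDX18#1) and 78.1 CPM (shDDX18#3) in H9 knockdown libraries, against 102 CPM in H9 shLuc. PSMC4 had 121 CPM (shDDX18#1) and 141 CPM (shDDX18#3) in HES2 knockdown libraries, against 119 CPM in HES2 shLuc, and 118 CPM (shDDX18#1) and 128 CPM (shDDX18#3) in H9 knockdown libraries, against 127 CPM in H9 shLuc. Groups of both ATPases overlapped. In the base, PSMD1 and PSMD2 are the large scaffolds and PSMD4 is a ubiquitin receptor. PSMD1 stood at 191 CPM with shDDX18#1 and 241 CPM with shDDX18#3 in HES2, against 248 CPM with shLuc, and at 179 and 219.8 CPM with the same hairpins in H9, against 276 CPM with shLuc. PSMD4 stood at 123 CPM with shDDX18#1 and 133 CPM with shDDX18#3 in HES2, against 148 CPM with shLuc, and at 92.3 and 127 CPM with the same hairpins in H9, against 153 CPM with shLuc. PSMD1 and PSMD4 each lay below both shLuc values in all 4 knockdown libraries, with H9 shDDX18#1 lowest in both (log2 fold changes -0.34 and -0.35, limma adjusted p = 0.186 and 0.192). PSMD2 stood at 302 CPM with shDDX18#1 and 323 CPM with shDDX18#3 in HES2, against 291 CPM with shLuc, and at 361 and 352 CPM with the same hairpins in H9, against 343 CPM with shLuc. PSMD2 was instead slightly above its own shLuc in all 4 knockdown libraries, with overlap between the groups (log2 fold change 0.08, adjusted p = 0.707).

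The 8 subunits of the lid, which removes ubiquitin chains, ran from -0.28 for PSMD7 to 0.18 for PSMD8. PSMD7 had 117 CPM (shDDX18#1) and 129.8 CPM (shDDX18#3) in HES2 knockdown libraries, against 149.8 CPM in HES2 shLuc, and 103 CPM (shDDX18#1) and 119.9 CPM (shDDX18#3) in H9 knockdown libraries, against 136 CPM in H9 shLuc. PSMD8 had 184 CPM (shDDX18#1) and 187 CPM (shDDX18#3) in HES2 knockdown libraries, against 157 CPM in HES2 shLuc, and 199 CPM (shDDX18#1) and 207 CPM (shDDX18#3) in H9 knockdown libraries, against 188 CPM in H9 shLuc. PSMD7 lay below both shLuc values in all 4 knockdown libraries, while PSMD8 lay above its own shLuc in all 4 with overlap between the groups. Neither was called (limma adjusted p = 0.196 and 0.372). Of the 3 chaperones of the 19S base, PSMD10 had a log2 fold change of -0.39 and PSMD9 one of 0.33. PSMD10 had 54.4 CPM (shDDX18#1) and 57.6 CPM (shDDX18#3) in HES2 knockdown libraries, against 70.6 CPM in HES2 shLuc, and 55.5 CPM (shDDX18#1) and 48.6 CPM (shDDX18#3) in H9 knockdown libraries, against 71.2 CPM in H9 shLuc. PSMD9 had 7.72 CPM (shDDX18#1) and 9.47 CPM (shDDX18#3) in HES2 knockdown libraries, against 5.59 CPM in HES2 shLuc, and 6.94 CPM (shDDX18#1) and 7.78 CPM (shDDX18#3) in H9 knockdown libraries, against 6.64 CPM in H9 shLuc. The PSMD10 knockdown values lay below both shLuc values and those of PSMD9 above both, without a call (limma adjusted p = 0.108 and 0.427). PSMD5, the remaining chaperone, is described with the cell lines.

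Each hairpin was also set against shLuc alone to see whether its own libraries carried the difference. Both comparisons use the same shLuc libraries. With shDDX18#1, limma called 8 of 44 members lower (18.2%), against 13.4% of all genes, and 0 higher, against 14.4% of all genes. At an unadjusted p under 0.05, 12 members were lower with this hairpin (27.3%), against 20.1% of all genes, and 1, PSME4, was higher (2.27%), against 20.1%. The genes called were PSME1 (log2 fold change -1.26, adjusted p = 0.00601), PSMG4 (-1.08, 0.00741), PSMA4 (-0.66, 0.0192), PSMA2 (-1.43, 0.0200), PSME3 (-0.55, 0.0281), PSMD1 (-0.50, 0.0286), PSMG1 (-0.60, 0.0299) and PSMD4 (-0.49, 0.0458). EdgeR called 8 lower, with PSME2 in place of PSMD4, against 13.4% of all genes. DESeq2 called PSME1 and PSMG4 only, against 6.45% of all genes. Neither tool called a member higher. PSME1 kept its call with this hairpin in all 17 alternatives and PSMG4 in 16. PSMA2 kept its call in 11 alternatives, PSMA4 in 10, PSMD1 and PSME3 in 9 each, PSMG1 in 8 and PSMD4 in 7. With 1 library left out a group can rest on 1 library, so counts of calls are not given for each library here. The median over members was -0.221 without H9 shDDX18#1 and -0.286 without HES2 shDDX18#1, against -0.029 and -0.033 over all genes. It was -0.156 without H9 shLuc and -0.34 without HES2 shLuc, against -0.031 and -0.015. With no trend in the prior variance 3 were called lower, against 6.72% of all genes, and without the cell line as a block PSME1 alone, against 5.64%.

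With shDDX18#3, limma called 1 member lower, PSMG1, at a log2 fold change of -0.66 (SE 0.17, adjusted p = 0.0429), 2.27% of members against 3.69% of all genes, and 0 higher, against 6.96% of all genes. At an unadjusted p under 0.05, 6 members were lower (13.6%), against 11.8% of all genes, and 1, PSME4, was higher (2.27%), against 14.6%. EdgeR also called PSMG1 alone and 0 higher, and DESeq2 called 0 in either direction, where 4.62% and 1.8% of all genes were called lower. With this hairpin PSME1 had a log2 fold change of -0.69, PSMG4 of -0.67, PSMA2 of -0.67, PSME3 of -0.27, PSMA4 of -0.21, PSMD4 of -0.20 and PSMD1 of -0.19. PSMG1 kept this call in 9 of the 17 alternatives, with log2 fold changes between -0.737 and -0.577. Leaving out a shDDX18#3 or shLuc library leaves 1 library in that group, so counts of calls are not given for it. The median over members was -0.085 without H9 shDDX18#3 and -0.177 without HES2 shDDX18#3, against -0.022 and 0.01 over all genes. It was -0.038 without H9 shLuc and -0.236 without HES2 shLuc, against -0.009 and -0.001.

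The hairpins were compared directly as shDDX18#3 against shDDX18#1. In limma 0 of 44 members were called, against 0.0% of all genes, with 2 higher (4.55%) at an unadjusted p under 0.05, against 7.82% of all genes, and 0 lower, against 6.46%, and edgeR and DESeq2 called 0 members. The 2 were PSMA4, at a log2 difference of 0.45 with a 95% interval of 0.08 to 0.83, and PSME1, at 0.57 with an interval of 0.02 to 1.11. Of the 44 differences, 36 were above 0, with a median of 0.156, against 0.023 over all genes. Without H9 shDDX18#1 this median was 0.08, and without HES2 shDDX18#3 it was 0.082, against 0.012 and 0.034 over all genes. Levels of DDX18 itself were higher with shDDX18#3 than with shDDX18#1 in both lines, as given above.

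The knockdown effect in HES2 was set against that in H9 with an interaction term. In limma 0 of 44 members were called, against 0.0% of all genes. At an unadjusted p under 0.05 there were 0 members, against 2.51% of all genes lower and 1.92% higher. EdgeR and DESeq2 also called 0 members, where DESeq2 called 0.0225% of all genes lower and 0.0563% higher and edgeR 0% in either direction. Differences were wide in error: PSME1 had -0.62 (HES2 effect minus H9 effect, 95% interval -1.89 to 0.65), PSMG4 -0.55 (-1.59 to 0.49), PSMG1 0.10 (-0.67 to 0.88) and PSMA2 0.85 (-0.95 to 2.65). Within lines PSME1 was at -1.49 and -1.08 in HES2 and at -1.03 and -0.30 in H9 with shDDX18#1 and shDDX18#3, and PSMG4 at -1.35 and -0.94 in HES2 and at -0.80 and -0.39 in H9. Of these 3 genes PSMG1 differed least between libraries, at -0.59 and -0.57 in HES2 and at -0.62 and -0.75 in H9.

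The cell lines differed most in PSMD5, a chaperone of the 19S base that binds the ATPase ring while the cap is built and is absent from the finished particle. PSMD5 had 0 CPM (shDDX18#1) and 0 CPM (shDDX18#3) in HES2 knockdown libraries, against 0 CPM in HES2 shLuc, and 50.2 CPM (shDDX18#1) and 51.9 CPM (shDDX18#3) in H9 knockdown libraries, against 67.0 CPM in H9 shLuc. There were 0 PSMD5 reads among 10629578 reads of the 3 HES2 libraries, against 525 reads in the 3 H9 libraries, so H9 lay at least 68.4-fold higher when each HES2 library is set at its floor of 3 reads. PSMD5 is known to differ between the lines from earlier results on these data and was included for it, so the difference is described and not tested. PSMD5 was the 1 member of 44 with at most 3 reads in each HES2 library and at least 20 CPM in each H9 library. Its silence was known when it was included, so nothing is read from that count. Over all genes 0.0169% met this criterion, and 0 genes (0.0%) met it with the lines exchanged. In H9, PSMD5 was at 50.2 and 51.9 CPM in the knockdown libraries, against 67.0 CPM in H9 shLuc, and in HES2 no effect of knockdown could be read.

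PSMD5 (ENSG00000095261) lies at chr9:120815496-120842984 on the minus strand of GRCh38, and its exons share no bases with another annotated gene. The 250 bases before its RefSeq start are shown because their CpG dinucleotides, given in capitals, are where DNA methylation can act. No methylation was measured here. The window is chr9:120842923-120843172 on GRCh38.p14, minus strand, read 5′ to 3′.
PSMD5: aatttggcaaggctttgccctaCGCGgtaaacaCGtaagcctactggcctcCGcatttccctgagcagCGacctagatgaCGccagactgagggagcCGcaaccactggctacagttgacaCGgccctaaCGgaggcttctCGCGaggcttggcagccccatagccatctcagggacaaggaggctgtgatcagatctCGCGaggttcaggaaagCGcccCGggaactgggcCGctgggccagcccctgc
The window holds 16 CpG dinucleotides, near the member median of 19, and 3 matches to the antioxidant core on either strand. In GENCODE 2 of 8 PSMD5 transcripts start inside it.

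The genes next to PSMD5 were looked at in the same libraries. CUTALP, a pseudogene on the opposite strand at chr9:120824828-120854385, overlaps the span of PSMD5 but shares no exon bases with it, and 2 of its 17 annotated transcripts start inside the window. CUTALP stood at 0.644, 1.39 and 0.224 CPM in HES2 with shDDX18#1, shDDX18#3 and shLuc, and at 15.5, 10.05 and 11.6 CPM in H9 in the same order. It was lower in every HES2 library than in any H9 library, at a log2 fold change of -2.97 for HES2 against H9 (limma adjusted p = 0.00228). FBXW2, the third gene on the lower side, had 56.0 to 80.3 CPM in HES2 and 59.97 to 86.6 CPM in H9 (log2 fold change -0.08, adjusted p = 0.791). PHF19, the next gene beyond CUTALP, had 23.5 to 39.1 CPM in HES2 and 27.4 to 51.2 CPM in H9 (-0.24, adjusted p = 0.580). B3GNT10 and TRAF1, which were under 6 CPM in every library, were not called (adjusted p = 0.9749 and 0.641), and AL161911.1 has no row.

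**Figure D3:**
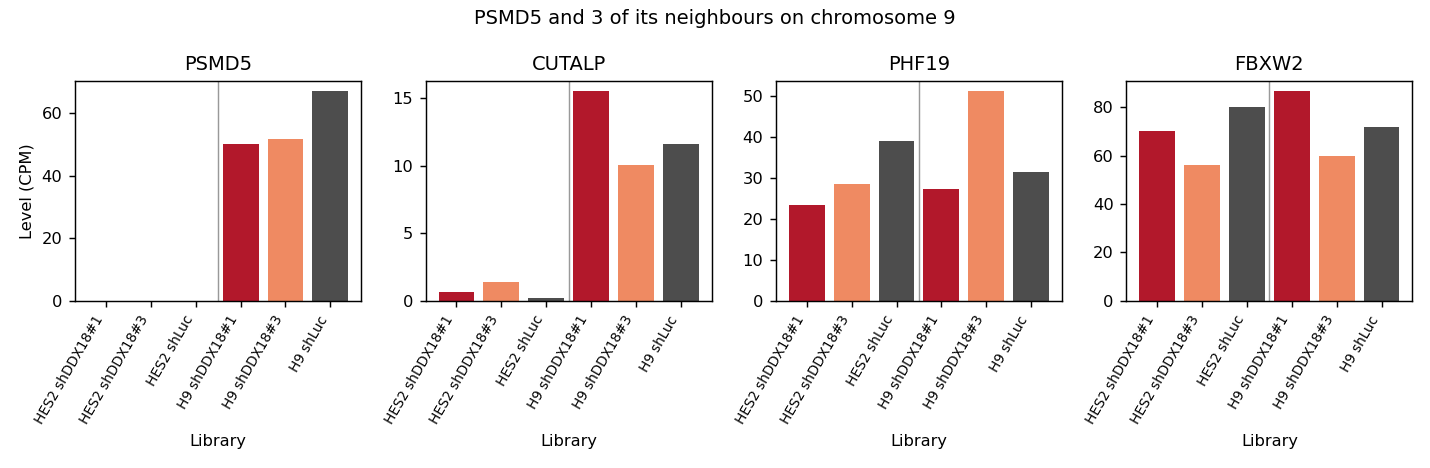
The bars give the level in CPM of PSMD5, CUTALP, PHF19 and FBXW2 in each library, with HES2 left of the grey line and H9 right of it, on axes that start at 0. PSMD5 has no bar in HES2 and 50.2 to 67.0 CPM in H9, and CUTALP is at 0.224 to 1.39 CPM in HES2 and 10.05 to 15.5 CPM in H9, while PHF19 and FBXW2 have bars of similar height in both lines.

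Among 14099 genes with a mean of at least 3 CPM, those whose 6 log2 values followed PSMD5 closely included RPL13P12 (Pearson r 0.999), MTND4P12 (0.997), ENSG00000224114 (0.996) and CLEC11A (0.996). The r of these genes rests on the difference between lines, over 6 libraries of 2 lines, and 12 genes had r over 0.99.

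The other members differed little between the lines. In HES2 against H9, limma called 1 of 44 members lower (2.27%), PSMD5, against 3.98% of all genes, and 0 higher, against 1.44% of all genes, and nothing is read from PSMD5 being among them. At an unadjusted p under 0.05 in limma, 2 members were lower (4.55%), against 11.6% of all genes, and PSMD5 was again 1 of them. Higher were 3 (6.82%), against 9.43%. EdgeR gave the same counts of members, and edgeR and DESeq2 called 1 lower and 0 higher. The 3 were PSMG3 (log2 fold change 0.76, adjusted p = 0.115), PSMG1 (0.38, 0.157) and PSMA3 (0.30, 0.195), and PSMG4, the second on the lower side, had -0.47 (0.169). PSMG4 was called lower when either shLuc library was left out. All 3 HES2 libraries lay below all 3 H9 libraries for PSMD8, PSMD2, PSMD13 and PSMB3, and for PSMD5, which was known beforehand to do so. With PSMD5 these were 5 members (11.4%), against 6.56% of all genes, so the share is raised by a member chosen for it. All 3 HES2 libraries lay above all 3 H9 libraries for 3 members, PSMC1, PSMG3 and PSMD12 (6.82%), against 7.78%. The median over members was 0.028, against 0.027 over all genes. It was -0.037 without either shDDX18#3 library and 0.104 without either shLuc library, with 0.025 to 0.035 over all genes. With scaling by library total these medians were 0.156 and 0.147, and all genes called in HES2 against H9 split into 472 higher and 568 lower, in place of 255 higher and 708 lower.

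Levels between genes were compared per kb of merged exons in GENCODE annotation on GRCh38. The 20S core genes led: PSMA7, an alpha subunit, was highest at 110.5 CPM per kb in the mean of knockdown libraries and 123 CPM per kb in the mean of shLuc libraries, followed by PSMB4 at 92.8 and 116 CPM per kb and PSMB6 at 76.4 and 89.5 CPM per kb. The first 7 places in shLuc were all taken by 20S genes, but this order depends on the length used. Per kb of the longest transcript, 5 of the first 7 were 20S genes, with the 19S genes PSMD4 and PSMD8 among them, and PSMB4 stood behind PSMB6, PSMB7 and PSMB3. The lowest were PSMD9 at 0.909 and 0.697 CPM per kb, PSMB10 at 0.838 and 0.781, PSMA2 at 0.854 and 1.92, PSMA6 at 2.26 and 2.59 and PSMA1 at 3.47 and 4.00, for knockdown and shLuc means. PSMA1, PSMA2 and PSMA6 are parts of the same ring as PSMA7. These 5 lowest members are also the 5 that share exons with another coding gene on the same strand, over 14.1% to 34.8% of their exon length, and how the authors counted reads falling on both genes is not given in the sources used here. Their levels per kb are therefore uncertain, and PSMA2 shares a further 19.6% with AC010132.2 on the other strand. The kit keeps no strand, so overlaps with coding genes on the other strand leave levels uncertain too. PSMC1 shares 75.8% of its exon length with NRDE2 in this way, PSMC5 19.5% with FTSJ3, PSMG2 13.95% with CEP76 and PSMG4 13.3% with SLC22A23. None of these was among the 5 lowest. Neighbours in the order, such as PSMB5 at 67.6 and 76.5 CPM per kb and PSMB1 at 67.1 and 76.4 CPM per kb, did not differ beyond the spread between libraries.

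**Figure D4:**
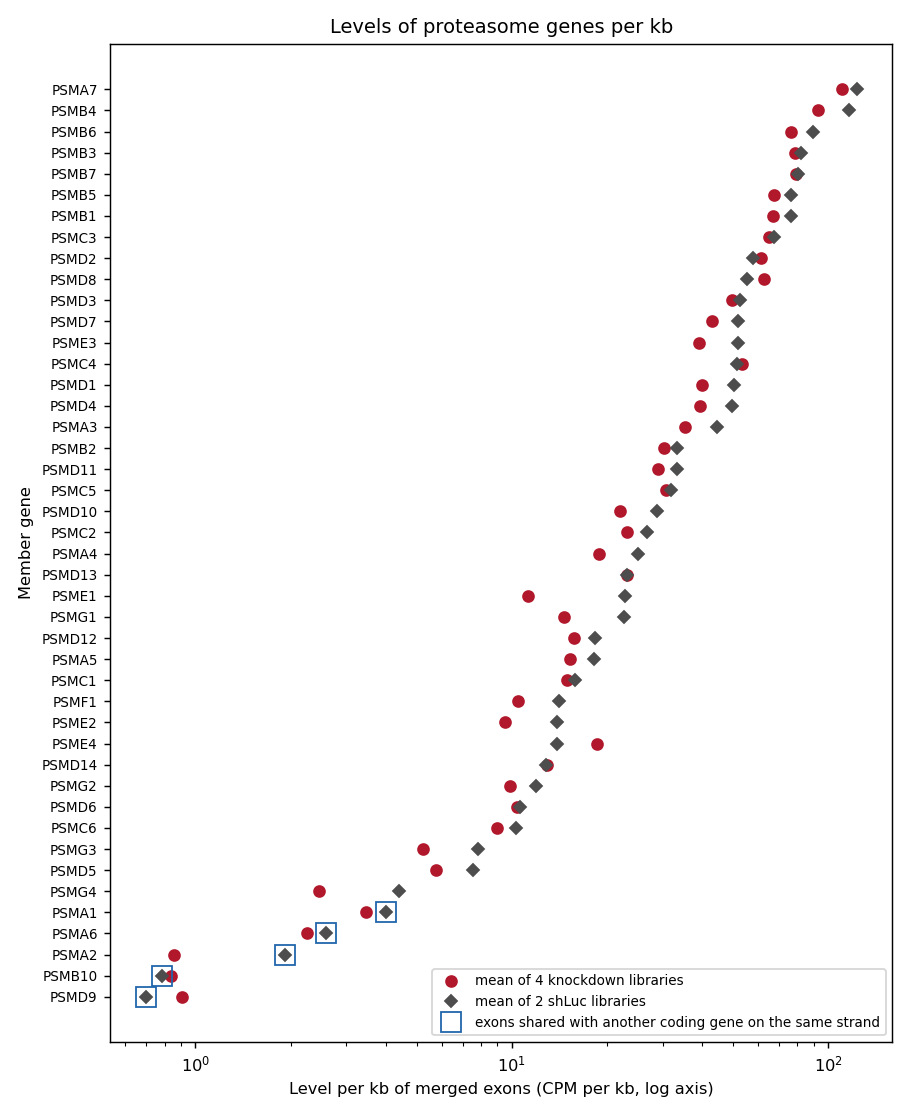
The plot of levels per kb ranks the 44 members by their mean in shLuc, on a log axis in CPM per kb of merged exons, with red circles for the mean of 4 knockdown libraries, grey diamonds for the mean of 2 shLuc libraries and blue squares around members that share exons with another coding gene on the same strand. The squares mark the 5 lowest members and leave out overlaps with genes on the other strand. Circle and diamond lie furthest apart for PSMA2, PSME1 and PSMG4.

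Genes that work with the proteasome but fall outside the naming rule were counted from lists. Of 12 partners, such as the ubiquitin receptor ADRM1 and the maturation factor POMP, 0 were called in either direction, with a median log2 fold change of -0.15. Of 9 genes that regulate proteasome genes, limma called MAFF, a small partner of the NFE2L factors, higher and NFE2L3, a relative of NFE2L1, lower. Over all genes tested 9.6% were called higher and 6.26% lower. Calls of genes in these lists were not tried under the alternatives. MAFF had 25.7 and 27.3 CPM in the HES2 knockdown libraries, against 13.2 CPM in HES2 shLuc, and 32.7 and 28.2 CPM in the H9 knockdown libraries, against 9.41 CPM in H9 shLuc (log2 fold change 1.27, adjusted p = 0.0108). NFE2L3 had 37.6 and 60.7 CPM in the HES2 knockdown libraries, against 217 CPM in HES2 shLuc, and 31.0 and 23.3 CPM in the H9 knockdown libraries, against 62.3 CPM in H9 shLuc (-1.67, adjusted p = 0.00966). MAFF groups and NFE2L3 groups did not overlap. NFE2L1 itself averaged 358 CPM in knockdown libraries and 361 CPM in shLuc libraries (log2 fold change -0.04, SE 0.19, adjusted p = 0.905).

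Of 16 genes for ubiquitin and its delivery to the proteasome, 1 was called lower, against 6.26% of all genes, and 0 higher, against 9.6%. The 1 was RPS27A, which encodes ubiquitin fused to a ribosomal protein. RPS27A had 280.3 and 285 CPM in the HES2 knockdown libraries, against 456 CPM in HES2 shLuc, and 329 and 364 CPM in the H9 knockdown libraries, against 473 CPM in H9 shLuc (log2 fold change -0.57, limma adjusted p = 0.0317). The median of these 16 was 0.02. Of 17 genes for the loading of peptides on MHC class I, 11 have a row and 0 were called, with a median of 0.18.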

How the data were processed

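Per the labels' protocols, a TruSeq RNA kit was used for the 6 libraries, and it keeps no strand. Per the submitters' processing notes, Bowtie2 2.3.4.3, SAMtools 1.9, HTSeq 0.11.2, edgeR 3.26.8 and hg19 were used, without their roles. The authors deposited 1 table with a normalized signal per library, log2 fold changes, a likelihood ratio score, and p-values with false discovery rates, whose design is not stated. Tested on the table, 100% of signal values were whole reads, within 0.001, once divided by the value of 1 read. Depth, 2668179 to 4271741 reads, gives floors of 3 reads at 0.671 to 1.23 CPM, which cover counting error only.

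Here limma 3.58.1 in R 4.3.3 was run with an intensity trend on log2(value + 1), for the 17768 genes that reached 1 CPM in 2 or more libraries (161 left out), with Benjamini-Hochberg adjustment. Cell line was the block, because same-numbered libraries come from the same line, and hairpin for HES2 against H9. EdgeR 4.0.16 and DESeq2 1.42.0 on recovered reads were alternatives, with other pseudocounts, filters, scalings, no trend, no block and each library left out. The fit was also run on counts simulated with known fold changes and independent noise between libraries, and no result here rests on that run. Positions and exon lengths come from GENCODE release 29 on GRCh38, promoter windows from RefSeq on GRCh38.p14. The score was not used.

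Members, lists and tests were chosen with earlier results of these data known. Values in every library are given for members called in any comparison, the highest and lowest of each role with at least 3 members, PSMD5, the active subunits, PSME1 and PSME2. PSMG3 and PSMF1 were added after their values were seen, as were the genes named at an unadjusted p. Some genes of the lists and of the comparison of lines are not reported here.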

Additional observations from a re-analysis of the deposited data

Results flagged for a closer look

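Among 27 values examined over the 4 knockdown libraries, 2 had 1 library far from the other 3, by a gap above Dixon's 95% critical value, which chance gives in about 1 of 20 groups. PSMA7 stood at 170.3 CPM in H9 shDDX18#1, against 199 to 202 CPM in the other 3 knockdown libraries, a gap of 0.919 of the range. PSMB4 stood at 225.3 CPM in HES2 shDDX18#3, against 191 to 194 CPM in the other 3, a gap of 0.901 of the range. PSMA7 and PSMB4 were called in no comparison.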

How the results depend on the processing

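The median log2 fold change over members in knockdown against shLuc stayed below 0 in all 17 alternatives, at -0.281 to -0.123. The number of members below 0 was 31 to 39 in these, against 37. Calls were less stable, and so was the share of all genes called lower. With 1 library left out a group can rest on 1 library, so counts of calls made that way are not read as results about the members. For shDDX18#3 against shLuc that share was 3.69%, and 3.19% with scaling by library total and 1.8% with DESeq2. It was 0.174% with no trend and 0.0113% without the replicate block. For shDDX18#1 against shLuc it was 13.4%, and 6.72% with no trend, 5.64% without the block and 6.45% with DESeq2. For knockdown against shLuc it was 6.26%, and 1.92% with no trend and 2.3% without the block. In that comparison 3 members were called lower, and 0 with no trend in the prior variance, 0 without the cell line as a replicate block and 0 to 3 with 1 library left out. Called higher were 0, and 1 with a filter of 5 CPM, with median-ratio scaling or with quantile scaling, and 0 to 1 with 1 library left out. For shDDX18#1 against shLuc 8 were called lower, and 3 with no trend, 1 without the replicate block, 2 with DESeq2 and 2 to 10 with 1 library left out; called higher were 0, and 1 with a filter of 5 CPM, median-ratio or quantile scaling. For shDDX18#3 against shLuc 1 was called lower, and 0 with scaling by library total, no trend, no replicate block or DESeq2 and 0 to 2 with 1 library left out, while called higher were 0, and 1 with quantile scaling. For HES2 against H9, 1 was called lower, and 1 to 2 with 1 library left out. The sign of uncalled members near 0 changed: PSMB7 was at 0.0067 with median-ratio scaling, 0.02995 with quantile scaling and 0.008717 with DESeq2, against -0.01, and at -0.1511 to 0.1252 with 1 library left out; PSMB10 was at -0.05124 with quantile scaling, against 0.06, and at -0.2834 to 0.4021 with 1 library left out; PSMC4 was at -0.04632 to 0.1364 with 1 library left out, against 0.05. PSMA5, PSMC3, PSMD3, PSMD6, PSMD11, PSMD13 and PSMD14 also changed sign under some alternatives. The cause was not tested. Pairing by cell line comes from the labels. Where the shLuc library of a line is left out, the effect rests on the other line, the interaction could not be fitted, and a lone library takes its spread from the rest. PSMB10 has no value with a filter of 5 CPM or DESeq2, where its adjusted p is missing. PSMB10, PSMD9 and PSMA2 had the lowest mean CPM in shLuc, so depth limits what can be read from them.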
